A study of Mus musculus with 5 samples.

Results

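The regions described here are the 204 stretches of the mouse genome inside protein-coding genes where both c-Maf antibody libraries had a peak and neither isotype library did. They were chosen by the peak calls: the 4 peak lists were merged where peaks overlapped by at least 1 bp, a merged region was kept when peaks of the 2 c-Maf antibody lists and of no isotype list made it up, and it had to overlap the span of a protein-coding gene on chromosomes 1 to 19 or X. They are 204 of 44041 merged regions inside genes (0.463%) and of 111088 merged regions in all. With the antibodies exchanged, the same rule gave 114 isotype-only regions inside genes (0.259%). The chromatin came from bone marrow macrophages of C57Bl/6 mice, which the source and cell type labels call polarized to M2, while the titles carry M0 without explanation. All 5 samples are of these cells: 2 libraries made with a rabbit antibody to c-Maf, 2 made with normal rabbit immunoglobulin (the isotype control), and 1 input, which served as the control of all 4 peak lists. The antibody libraries of each kind carry the numbers 3 and 4, biological replicates by the design text, and no group differs in strain, genotype or treatment. The title of the input carries the number 4, and the same input served the libraries of number 3. No transcript was measured, so the cell type could not be checked against its markers, and a region in a gene says nothing of whether that gene was transcribed.

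c-Maf is a basic leucine zipper transcription factor of the large Maf family. It binds DNA as a dimer at Maf recognition elements, which hold the letters TGCTGA as a half-site. In macrophages it is known for its part in Il10 transcription and in the alternatively activated state. Chromatin immunoprecipitation followed by sequencing (ChIP-seq) recovers DNA fragments bound by the antibody's target, and a peak is a stretch where more fragments pile up than in the input. Fold enrichment below is the authors' value for each peak, the pileup at the summit plus 1 over the local input level plus 1, and the q-value is their p-value adjusted over the list.

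The members that reached a promoter show what these regions look like at the level of sequence. RefSeq's promoter table (GRCm38.p6, the coordinates of mm10) lists windows from 250 bases before to 50 after a transcript start, and 7 members overlapped 8 of them. Over all 32619 windows, 16 (0.0491%) were overlapped by any c-Maf-only region. The upstream bases of 4 of these promoters are printed because they carry the members in C1qb (the B chain of complement C1q, an opsonin made by macrophages), Idh1 (cytosolic isocitrate dehydrogenase), Rftn1 (raftlin, a lipid raft protein) and Pepd (the dipeptidase prolidase). Each is written 5′ to 3′ on the strand of the gene and ends at the base before the start. Capitals mark the bases inside the c-Maf-only region. The C1qb sequence is chr4:136886201-136886450 on the minus strand, the Idh1 sequence chr1:65186480-65186639 on the minus strand, the Rftn1 sequence chr17:50190498-50190747 on the minus strand and the Pepd sequence chr7:34912157-34912406 on the plus strand.
C1qb: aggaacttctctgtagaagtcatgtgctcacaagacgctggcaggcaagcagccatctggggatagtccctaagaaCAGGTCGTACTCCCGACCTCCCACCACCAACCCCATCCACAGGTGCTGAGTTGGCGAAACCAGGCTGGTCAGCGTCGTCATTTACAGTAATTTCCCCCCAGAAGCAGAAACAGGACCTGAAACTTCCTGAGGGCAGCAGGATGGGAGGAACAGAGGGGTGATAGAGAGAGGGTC
Idh1: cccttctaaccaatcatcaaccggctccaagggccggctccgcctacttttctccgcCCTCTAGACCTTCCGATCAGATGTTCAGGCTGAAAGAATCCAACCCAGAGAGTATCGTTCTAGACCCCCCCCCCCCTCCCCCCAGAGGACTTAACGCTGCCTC
Rftn1: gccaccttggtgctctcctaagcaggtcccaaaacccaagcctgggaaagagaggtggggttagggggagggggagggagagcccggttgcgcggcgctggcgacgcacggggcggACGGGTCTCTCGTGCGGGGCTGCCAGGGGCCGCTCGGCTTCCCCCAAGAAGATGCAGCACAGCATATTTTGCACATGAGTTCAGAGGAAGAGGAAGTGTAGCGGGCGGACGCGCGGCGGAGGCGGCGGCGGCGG
Pepd: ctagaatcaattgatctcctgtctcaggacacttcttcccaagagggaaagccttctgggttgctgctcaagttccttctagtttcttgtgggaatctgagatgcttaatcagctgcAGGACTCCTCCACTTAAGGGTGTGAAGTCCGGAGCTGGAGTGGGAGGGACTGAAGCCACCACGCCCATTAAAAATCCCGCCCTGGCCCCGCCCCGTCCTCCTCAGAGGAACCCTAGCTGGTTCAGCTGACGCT

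The C1qb region (chr4:136886162-136886374) covered 174 of the 250 upstream bases and 39 bases of the gene, and its summits lay 21 bp inside the gene in number 3 and 21 bp before the start in number 4. It held 1 match to TGCTGA, beginning 131 bases before the start. The Idh1 region (chr1:65186449-65186582) lay mostly between 2 divergent genes: it covered 103 of the 160 bases that separate Idh1 from Pikfyve, the kinase that makes phosphatidylinositol 3,5-bisphosphate, and 31 bases of Idh1 itself. It is a member because of those 31 bases. The Rftn1 region covered 134 upstream bases and held 1 match to GAGGAAGT, a sequence of the kind bound by PU.1, beginning 45 bases before the start. The Pepd region covered 133 upstream bases and held no match to the 3 motifs searched.

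The remaining windows belonged to Evi5, Btaf1, Gm15319 and, across from Idh1, Pikfyve. Evi5 (a GTPase-activating protein) held TGCTGA 208 bases before its listed start, inside the region. Btaf1 (a regulator of TATA-binding protein) was covered only after its start and held TGCTGA there. In the predicted gene Gm15319 the match lay outside the region. In all, 4 of the 8 windows held TGCTGA on either strand, where 19.5% of all 300-base windows do. TGANTCA, the element of AP-1 factors, was in 0 of the 8 windows and in 7.85% of all windows, and GAGGAAGT was in 1 of the 8 and in 3.22% of all. These matches are a description of a few windows and were not tested. Base composition ranged widely: GC content was 51.3% in Gm15319, 56% in Pepd, 56.3% in C1qb, 62% in Idh1 and 70% in Rftn1. The median over all windows was 53%.

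Most members were modest peaks. In c-Maf antibody number 3 the fold enrichment of the 204 members ran from 1.65 through a median of 4.53 to 15.5, and in number 4 from 1.55 through 4.02 to 10.54. The pileup at the summit had a median of 6.79 scaled tags in number 3 and 5.92 in number 4, so a typical member rests on few tags and each value has a large counting error. A q-value of at most 0.05 was reached in both libraries by 20 members, in 1 library by 43 and in neither by 141. The members themselves were short, with a median length of 131 bp (63 to 319), and the summits of both libraries lay a median of 33 bp apart, within 50 bp in 151 members. The peak strengths chose the members, so they are given as a description.

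**Figure D1:**
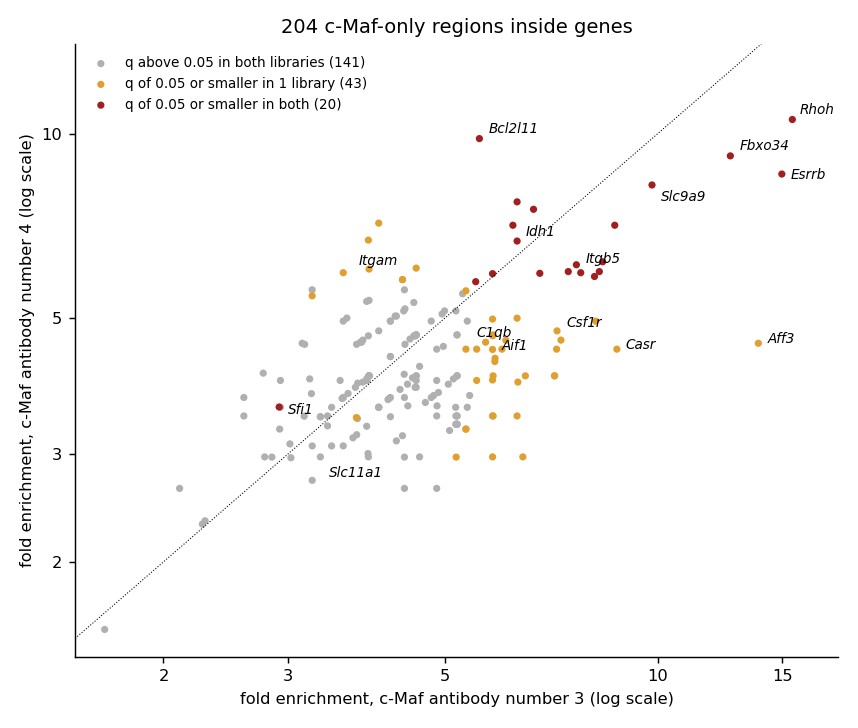
Fold enrichment of each of the 204 c-Maf-only regions inside genes in c-Maf antibody number 3 (x axis, log scale) and number 4 (y axis, log scale), 1 point per region, coloured by the authors' q-value; the dotted line marks equal values. Rhoh, Fbxo34, Esrrb and Slc9a9 stand at the upper right, 115 members had the higher fold in number 3 and 89 in number 4.

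The strongest member lay in Rhoh, which encodes a GTPase-deficient signalling protein of blood cells. Its fold enrichment was 15.5 in number 3 and 10.54 in number 4, with summit pileups of 26.2 and 17.8 scaled tags over an implied input of 0.756 and 0.780. The region (chr5:65883428-65883624) sat 22.8 kb into a gene of 36.0 kb, and neither isotype list had a peak anywhere in Rhoh. Fbxo34, an F-box protein gene, followed with folds of 12.7 and 9.19, 10.8 kb from its start. Esrrb, an orphan nuclear receptor best known from pluripotent cells, had folds of 14.97 and 8.59 at 127.1 kb into a gene of 160.5 kb. With the member's own peaks, that gene held 5 and 4 peaks of the c-Maf antibody lists and 6 and 1 of the isotype lists.

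The next members by mean rank fell in genes of varied function. Slc9a9, an endosomal sodium-proton exchanger, had folds of 9.81 and 8.24, 27.3 kb from the start of a gene of 560.9 kb. Spock1, which encodes a secreted proteoglycan, had 8.69 and 7.08. The agouti gene, whose symbol is a, had 6.67 and 7.52, at the far 3′ end of its span. Nav1, a microtubule-binding protein, had 6.32 and 7.74.

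Bcr, known from the BCR-ABL fusion, had folds of 7.78 and 5.93. Tln2, which encodes talin 2, a link between integrins and actin, had 8.35 and 6.18. The Idh1 region printed above had 6.32 and 6.68. Itgb5, the integrin beta chain that pairs with alpha V in the uptake of dying cells, had 7.67 and 6.11. The list by rank then closed with Rab3il1 (a Rab exchange factor, 6.24 and 7.08), Acox3 (a peroxisomal oxidase of branched fatty acids, 8.26 and 5.95), Slc66a1 (a lysosomal exporter of cationic amino acids, 7.47 and 5.95) and E2f7 (an atypical E2F repressor, 5.84 and 5.91). All 15 passed a q-value of 0.05 in both libraries.

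The other 5 members that passed in both libraries were in Nek4 (a kinase, 6.81 and 5.91), Mgat5 (an enzyme of N-glycan branching, 8.14 and 5.84), Bcl2l11 (the pro-apoptotic protein Bim, 5.59 and 9.81), Slc22a29 (an organic anion transporter family member, 5.53 and 5.73) and Sfi1 (a centrin-binding protein, 2.91 and 3.58). Bcl2l11 lay 2.06 kb from its gene start, and the next nearest of the 4 with a known strand was 23.0 kb from its own. Libraries could differ sharply for 1 member: Aff3, a nuclear protein of lymphoid cells, had a fold of 13.9 in number 3 and 4.55 in number 4, and Casr, the calcium-sensing receptor, 8.75 and 4.45. Both were picked after their values were seen.

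Among genes that mark or run the macrophage, members lay in Csf1r, Itgam and Aif1, 3 of the 21 genes listed for macrophage identity. Of all 21627 protein-coding genes, 207 (0.957%) held a member and 105 (0.486%) an isotype-only region. None of the 21 listed genes held an isotype-only region. Csf1r encodes the receptor for the macrophage growth factors CSF-1 and interleukin 34, and it held 2 members. The first had folds of 7.20 and 4.76 and lay 3.2 kb from the lower coordinate of the gene; the other had 4.35 and 3.21 and lay 15.1 kb from it. The strand of Csf1r is not in the promoter table, so neither was placed against the start. No isotype peak lay in Csf1r, and the nearest to either member was 63149 bp away.

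Itgam encodes CD11b, the alpha chain of complement receptor 3. Its member (chr7:128063612-128063742) had folds of 4.55 in number 3 and 6.03 in number 4, 1.02 kb inside the gene. Aif1, the actin-binding protein IBA1 used to stain macrophages and microglia, had folds of 5.84 and 4.68, 3.39 kb into a gene of 5.1 kb. Number 3 thus passed a q-value of 0.05 for Aif1 and for the first Csf1r region, and number 4 for Itgam.

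C1qb, from the list of genes reported as c-Maf targets, had folds of 5.38 and 4.94, and Csf1r is on that list too, giving 2 of 20. Another c-Maf-only region, with folds of 5.46 and 4.45, lay 16 bp outside the neighbouring C1qc gene and is no member for that reason. Slc11a1, the phagosomal metal transporter NRAMP1 of macrophages, held a member 486.5 bp from its start with folds of 3.90 and 2.97. Neither library reached a q-value of 0.05 for C1qb or for Slc11a1 (−log10 q of 1.24 and 0.621 for C1qb, where 1.30 would be needed). None of the 24 genes listed for alternative activation, the 22 for classical activation or the 27 myeloid lineage transcription factors held a member. With 0.957% of all protein-coding genes holding one, none in lists of this size says little.

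**Figure D2:**
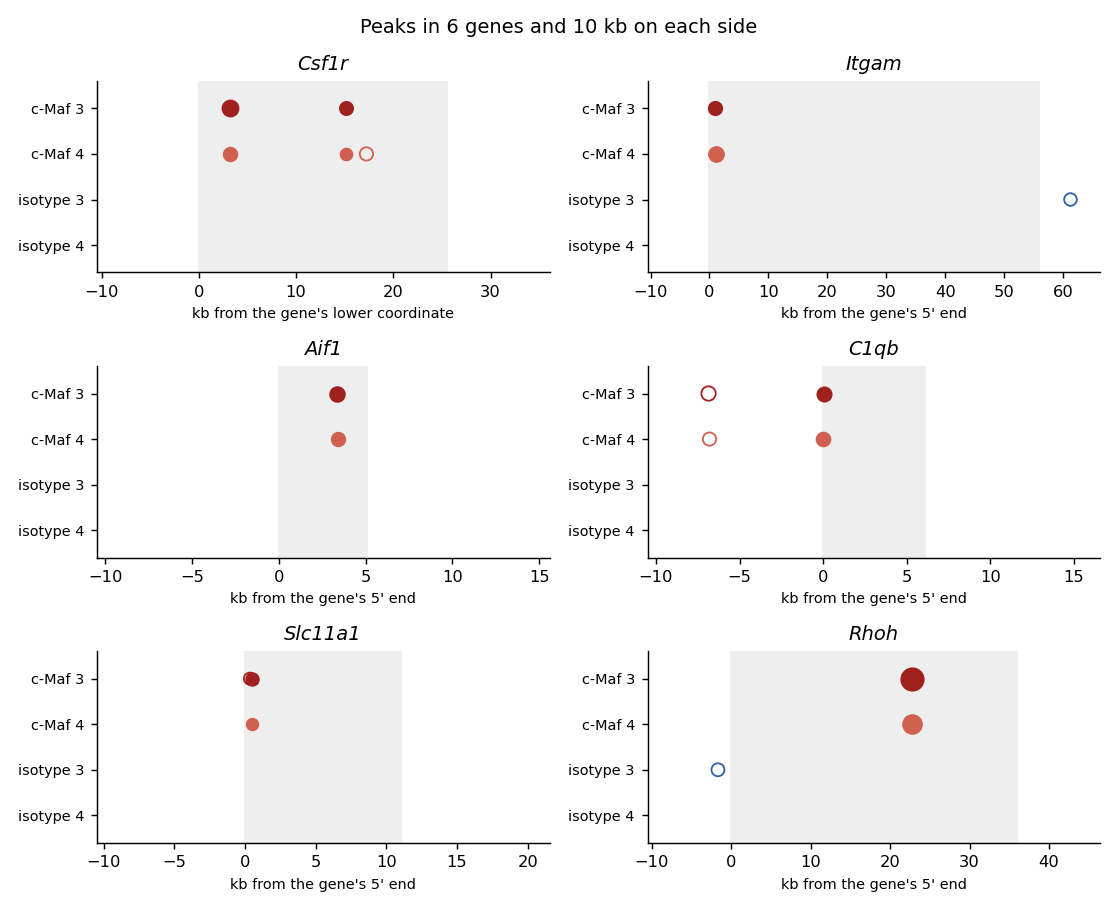
Peaks of the 4 libraries in Csf1r, Itgam, Aif1, C1qb, Slc11a1 and Rhoh and 10 kb on each side; the x axis is the distance in kb from the 5′ end of the gene (for Csf1r from its lower coordinate), grey marks the gene span, filled circles are peaks that form a member, open circles are other peaks, and circle area grows with fold enrichment. None of the 6 genes holds an isotype peak inside its span, and the C1qb panel shows the pair of c-Maf antibody peaks beside C1qc.

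Genes of adhesion, the cytoskeleton and signalling supplied several members. Of 18 listed integrin chains, 3 held one: Itgam and Itgb5 as above and Itga9, with folds of 4.87 and 4.45. Members also lay in Arhgap24 (4.19 and 3.71) and Srgap2 (4.35 and 5.78), which encode GTPase-activating proteins. Of 20 genes listed for lymphoid and blood cell signalling, Rhoh and the Src family kinase Fyn (2.60 and 3.46) held one. No listed integrin gene held an isotype-only region. Among all protein-coding genes, 0.957% held a member and 0.486% an isotype-only region, so the latter result says little for 18 genes. Regions of 1 c-Maf antibody library alone lay in 7 of the 18 integrin genes. Their median length was 59.7 kb, against 17.3 kb for all genes.

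Several other signalling genes were picked after their values were seen, for their known place in macrophages. Il10rb, a chain of the interleukin 10 receptor, had folds of 6.34 and 3.93. Cmklr1, the chemerin receptor, had 5.89 and 4.30, and Arrb2, beta-arrestin 2, had 5.84 and 4.44. Ptpn1, the phosphatase PTP1B, had 4.90 and 3.78. Timp2, an inhibitor of matrix metalloproteinases, had 7.19 and 4.45, and Cotl1, a coactosin-like actin-binding protein, had 4.27 and 3.15. Adap2, a GTPase-activating protein for ARF6, held 2 members, with folds of 5.71 and 4.57 at 18 kb and 3.91 and 4.02 at 23.3 kb from its start, and no isotype peak. Number 3 gave the higher fold in each of these genes except for the second Adap2 region.

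Transporter genes of the solute carrier (Slc) families held 12 members in 11 of 375 genes (2.93%), where 2 of the 375 (0.533%) held an isotype-only region. Over all protein-coding genes these shares were 0.957% and 0.486%. Slc was 1 of several symbol families counted. Members also lay in 4 of 38 Ptpn or Ptpr genes and 3 of 94 Kcn genes. For Zfp genes it was 7 of 397, with isotype-only regions in 6. This grouping by symbol was made after the genes were seen, and Slc genes were also longer than average, with a median of 28.7 kb against 17.3 kb for all genes. Slc7a8, an exchanger of neutral amino acids, held 2 members 25.3 and 32.4 kb from the start, with folds of 6.32 and 5.00 and of 4.99 and 5.13. No isotype peak lay in that gene. Slc7a7, its relative for cationic amino acids, had 4.69 and 3.64, and Slc25a37, the mitochondrial iron importer mitoferrin, had 5.20 and 4.69. Arsg, a lysosomal sulfatase, had 6.50 and 4.02 at 602.5 bp from its start. Acp2, a lysosomal acid phosphatase, had 4.55 and 4.02, Cln3, a lysosomal membrane protein, had 4.39 and 4.53, and Tfe3, a transcription factor of lysosomal genes, had 5.20 and 4.02. Of the genes in this group, Slc7a7, Slc25a37, Acp2, Cln3 and Tfe3 were picked after their values were seen.

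Among regulators of transcription, members lay in 2 of 32 nuclear receptor genes, Esrrb and Rxra (the retinoid X receptor, 3.41 and 3.46), and in 1 of 28 genes of the Maf family and its bZIP partners, Bach2 (6.32 and 3.46). Bach2 pairs with small Maf proteins, and its member lay 331.7 kb into a gene of 347.7 kb. Among the metabolic lists, 1 of 21 genes listed for the citric acid cycle, Idh1, and none of 20 glycolytic genes held a member. Idh1 is on that list although its enzyme is the cytosolic one, and its member had only 31 bp inside the gene. Neutrophil and mast cell, T and B cell, fibroblast and housekeeping lists held none in 14, 13, 10 and 15 genes. At a share of 0.957% over all protein-coding genes, lists of this size that hold none say little.

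By count, the list named for synaptic adhesion and other long neuronal genes had the most genes with a member, 5 of 50. It also had the most with an isotype-only region, 7 of 50. The 5 genes with a member were Ptprt (3.91 and 5.34), Csmd1 (3.63 and 5.00), Kcnip4 (4.55 and 4.02), Wwox (3.74 and 3.85) and Opcml (5.08 and 3.28). The median gene length over the list was 1120 kb. Peaks of 1 c-Maf antibody library alone lay in 48 of the 50. Over all 18 lists, 19 of 381 matched genes (4.99%) held a member and 9 (2.36%) an isotype-only region. The shares over all protein-coding genes were 0.957% and 0.486%. The lists were chosen with earlier results of these data known, so their counts are a description and no independent support. The listed genes were longer than most, with a median of 29.2 kb against 17.3 kb, and what share of the counts follows from gene length was not tested.

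The summits of the members were spread over the gene but lay toward its 5′ end. The strand, and with it the start, was known for the genes of 160 members. Of these, 76 (47.5%, 95% Wilson interval 39.9 to 55.2) lay in the 5′ part of the gene, the first of 3 equal parts of its span, 40 (25%) in the middle part and 44 (27.5%) in the 3′ part. Regions held by 1 c-Maf antibody library alone had 3631 of 11701 (31.0%) in the 5′ part, and the difference of 16.5 percentage points passed a two-sided Fisher's exact test (p = 1.53e-05, adjusted 9.19e-05 over 6 tests). Isotype-only regions had 31 of 85 (36.5%) there, and that difference of 11.03 points did not pass (p = 0.106 by Fisher's exact test, adjusted 0.106). Of 10 equal bins along the span, the first 3 held 23, 24 and 22 of the 160 members, and the later 7 held 10 to 17 each.

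**Figure D3:**
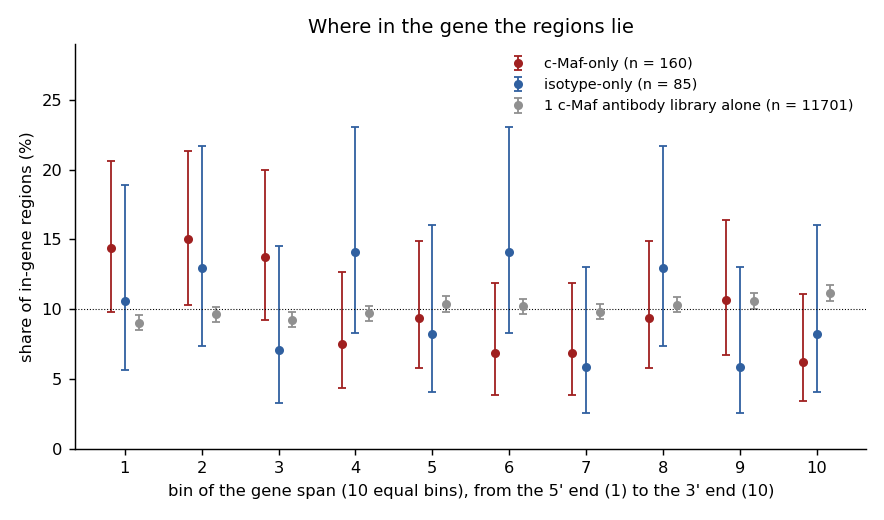
Share of regions (%) in each of 10 equal bins of the gene span from the 5′ end (1) to the 3′ end (10), for 160 c-Maf-only, 85 isotype-only and 11701 regions of 1 c-Maf antibody library alone; bars are 95% Wilson intervals and the dotted line marks an even spread. The first 3 bins hold 14.4%, 15% and 13.8% of the c-Maf-only regions against 9.02%, 9.64% and 9.24% of the lone regions.

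The share in the 5′ part was higher than that of lone regions in each band of gene length. In genes up to 30 kb it was 56.7% (17 of 30) against 30.2%, from 30 to 100 kb 43.4% against 31.3%, from 100 to 300 kb 52% against 30.3%, and over 300 kb 37.0% against 31.9%. Isotype-only regions had the higher share from 30 to 100 kb (45.8%) and over 300 kb (37.9%), and the lower one up to 30 kb (22.2%) and from 100 to 300 kb (30.4%). The intervals of these bands are wide, and the bands were not tested one by one. Stronger peaks gave a similar split. With a p-value of 1e-05 or smaller in at least 1 library, 51 of 98 members (52.0%) lay in the 5′ part. Of lone regions under the same cut-off, 31.2% did. A member could reach it in either of 2 libraries and a lone region in only 1, so strengths were not matched. Of the 18 members with a known strand that passed a q-value of 0.05 in both libraries, 9 (50%) lay there. With weak peaks dropped from every list before merging, fewer regions met the rule and the call against lone regions was lost (51.9% against 32.2% at a p-value of 1e-05, adjusted p = 0.114 by Fisher's exact test). With equal list lengths the share of isotype-only regions was the higher (46.7% of members against 52%), over 25 isotype-only regions.

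Members close to the start were the minority. Within 5 kb of the gene start lay 31 of 160 (19.4%, 14 to 26.2), beside 8.79% of lone regions (two-sided Fisher's exact test, adjusted p = 9.95e-05) and 8 of 85 isotype-only regions (9.41%, p = 0.0450, adjusted 0.0541). Within 1 kb of any listed transcript start lay 16 (10%), beside 2.93% of lone and 3.53% of isotype-only regions. At the other end, 17 members (10.6%) lay within 5 kb of the 3′ end, beside 10.6% of lone and 8.24% of isotype-only regions. The difference from lone regions within 5 kb was lost when each gene was counted once (20.4% against 15.4%, Fisher's exact p = 0.110), whereas the difference in the 5′ part stayed (47.4% against 30.3%, adjusted p = 4.95e-05 by the same exact test).

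**Figure D4:**
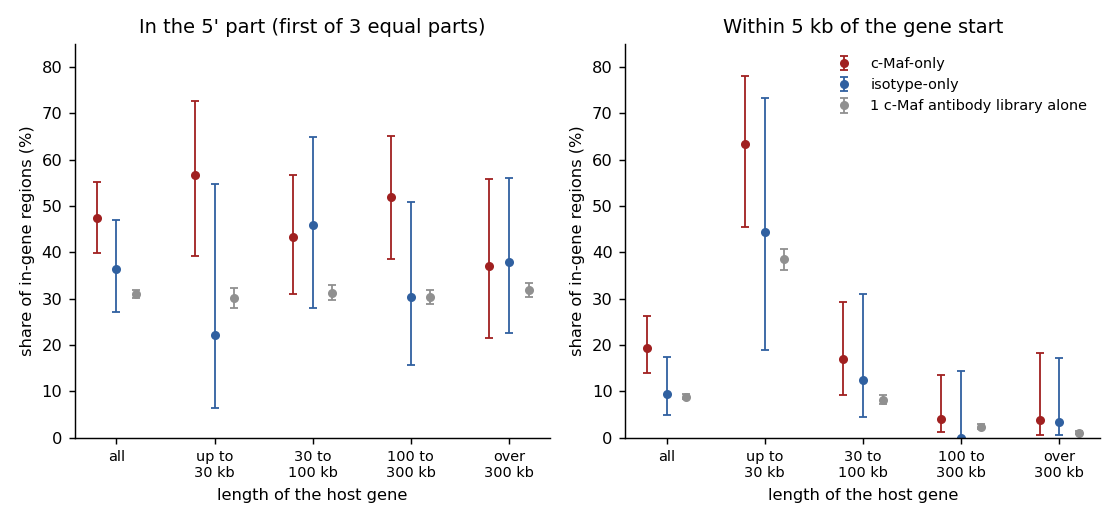
Share of regions (%) in the 5′ part of the gene (left) and within 5 kb of its start (right), over all genes with a known strand and by the length of the host gene, for c-Maf-only, isotype-only and lone c-Maf antibody regions; bars are 95% Wilson intervals. The c-Maf-only share in the 5′ part is 47.5% over all genes against 31.0% for lone regions, and the intervals of c-Maf-only and isotype-only regions overlap in every band.

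By the rule for genes named near their start, the mean of both summits lay within 1 kb of it, or of either end of the gene where the strand is not known, in 14 members. Beyond C1qb, Idh1, Rftn1, Pepd, Btaf1, Gm15319, Arsg and Slc11a1 they were in Pla2g6 and Pnpla8, both phospholipases, Zfp9 and Zfp979, both zinc finger genes, Ankrd13d, an ankyrin repeat protein, and Ppp1r17, a phosphatase inhibitor. Tfe3 and Bcl2l11, though 1.65 and 2.06 kb from the 5′ end of the span, lay 238.5 and 527 bp from another listed start.

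Host genes were long. Their lengths ran from 3.58 through a median of 96.1 to 1643 kb, and 96 of 204 members (47.1%, 40.3 to 53.9) lay in genes over 100 kb. This was less than for lone regions (59.7%, adjusted p = 0.000636 by Fisher's exact test) and for isotype-only regions (69 of 114, 60.5%, adjusted p = 0.0391). The call against isotype-only regions was lost with each gene counted once (adjusted p = 0.0593), at 50% reciprocal overlap (0.0983) and with equal list lengths (0.434), all by the same exact test, and the difference turned at a p-value of 1e-05 (35.1% against 26.7%). The comparison with lone regions turned round when each gene was counted once, with 47.7% of host genes of members and 32.4% of host genes of lone regions over 100 kb (Fisher's exact test, adjusted p = 4.95e-05). The 15187 lone regions lay in 6566 genes, and the 204 members in 207, so the direction depends on whether regions or genes are counted.

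A total of 10 host genes held more than 1 member. Besides Csf1r, Slc7a8 and Adap2 they were Spock1, Evi5, Camkmt (a calmodulin methyltransferase), Phc2 (a Polycomb protein), Rgl1 (a Ral exchange factor), Mroh2a and Sfi1, which held 3. In Phc2 the members lay 12.0 and 12.8 kb from the start, with folds of 4.97 and 4.49 and of 7.14 and 4.02. In Spock1 they lay 58.4 and 339.7 kb from it, in a gene with 15 and 12 c-Maf antibody peaks and 29 and 7 isotype peaks. Members of 1 gene share its chromatin and are not replicates.

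Some members lay in sequence where the input itself was high. An implied input level over 2.5 scaled tags, against a median of 0.629 and 0.599, was found in 11 members in 8 host genes, with folds of 1.55 to 3.76. Sfi1 held 62 and 83 peaks of the c-Maf antibody lists and 80 and 77 of the isotype lists. Of its 3 members, 1 had the lowest fold of all 204 in either library, at 1.65 and 1.55 over an implied input of 19.0002 and 20.0011 scaled tags. Another of the 11 lay where 9 Ugt1a genes overlap, so that 1 region counts for 9 of the 207 genes that hold a member. With such regions left out, the 5′ part held 49.3% of the members and 31.0% of lone regions.

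The isotype peaks nearest to the members lay a median of 16827 bp away (32 to 189883 bp), within 1 kb for 19 members and within 10 kb for 68. The host gene held an isotype number 3 peak for 144 members, an isotype number 4 peak for 92 and neither for 49. Isotype number 3 had 58732 peaks and the other isotype library 15568, against 23434 and 17620 for the c-Maf antibody, at nearly equal depth (21655683 to 22017759 tags). At a q-value of 0.05 the order differed, with 717 and 505 c-Maf antibody peaks and 244 and 408 isotype peaks. With every list shortened to its 15568 strongest peaks, 168 regions met the rule.

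At the edges of the rule, the peaks of both c-Maf antibody libraries overlapped by 2 bp in Ppp1r17, 3 bp in Stk32b and 4 bp in Gm5934. Just outside, pairs missed each other by 1 bp in Etl4, 4 bp in Sgcz and 6 bp in Myo6. Gm15319 was a member by 3 bp inside the gene, whereas regions 8 bp outside Zfp143 (folds of 8.10 and 7.08) and 10 bp outside Eif4ebp1 (6.81 and 6.89) were not. The weakest peaks admitted had a −log10 p of 2.13 (Kansl1l, number 3) and 2.09 (Sfi1, number 4). The isotype peak closest to a member was 32 bp away, in Zfp978.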

How the data were processed

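ChIP-seq peak lists of 2 c-Maf antibody and 2 isotype libraries were used, with 1 input library entering only as the control of the peak calls. Per the file headers the authors called peaks per library with MACS 2.1.1.20160309 at a p-value cut-off of 0.01, kept 1 tag per position, scaled the larger library to the smaller and set the genome size to the human value. Each deposited peak has a pileup signal, a fold enrichment (a ratio with 1 added to both parts), and p-value and q-value columns given as −log10, all computed by the authors. The submitters' processing notes name FastQC, MACS2, MACS 1.4.2 and mm10. No aligner was given in the sources used here. Depth was 21655683 to 22017759 tags, and intervals cover counting error only.

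Peaks were merged at 1 bp of overlap (Python 3.11.15, pandas 2.3.3, scipy 1.17.1). Implied input is the pileup plus 1 over the fold, minus 1. Gene spans came from RefSeq (GRCm38.p6) and strands from its promoter table, for 17273 of 21627 genes; members without a strand were left out of places in the gene, in place of the planned outer parts of the span, and exons and introns were not analysed here. A place is the mean of both summits. Each share was compared by Fisher's exact test, two-sided, and the 6 p-values were adjusted by Benjamini-Hochberg. These p-values compare regions of these libraries, not conditions: an exact two-sided relabelling of 2 against 2 libraries cannot give under 0.333, and no test over libraries was run. The scripts were tested on simulated peak lists.

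Members, gene lists (18 lists, 382 genes, 1 unmatched) and tests were chosen with earlier results of these data known. The named genes are the 15 best by mean rank of p, those passing a q-value of 0.05 in both lists, those in the lists, those with 2 or more members, those within 1 kb of the start and those at the edges of the rule; others are said to be picked after their values were seen. Some items that this rule takes are not reported here. The numbers 3 and 4 are shared by both antibodies, and nothing in the labels says that they pair the libraries.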

Additional observations from a re-analysis of the deposited data

How the results depend on the processing

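The counts depended on the peaks kept. The 204 c-Maf-only regions became 23 at a q-value of 0.05, 37 at a p-value of 1e-05, 4 at 1e-10, 22 at a fold of 5 and 123 at 50% reciprocal overlap; leaving out 1 library gave 218 to 9162, the highest values without a c-Maf antibody library (6432 without number 3, 9162 without number 4). The 114 isotype-only regions became 2, 15, 0, 0 and 69 at the same settings, 39 with equal list lengths and 181 with summits within 200 bp, and 131 to 22552 with 1 library left out. The 19 listed genes became 4, 6, 2, 4 and 12, and 19 to 134 with 1 library left out. The replicate block, which drops a peak only where the other antibody of the same number has one, gave 205 and 116 regions and 19 listed genes, and changed no call.

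Differences between members and other regions are in percentage points. In the 5′ part of the gene against lone regions (16.5), the call was lost at a q-value of 0.05 (12.2), a p-value of 1e-05 (19.7), 1e-10 (0) and a fold of 5 (22.7), where few regions met the rule. Within 5 kb against lone regions (10.6), it was lost at the same settings (6.77, 11.8 and, for the fold, 5.82) and with each gene counted once (5.01), and it turned at 1e-10 (-15.4). Over 100 kb against lone regions (-12.6), it was lost at a q-value of 0.05 (-13.4) and a fold of 5 (-7.71) and turned at 1e-10 (5.56) and with each gene counted once (15.2).

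Against isotype-only regions, equal list lengths turned the difference within 5 kb (-3.26) and in the 5′ part (-5.33). With all libraries kept, the former passed the test with high input left out (10.54) and by the nearest listed start (13.7), and the latter at 50% reciprocal overlap (23.4). Leaving out isotype number 3 or 4 made the difference within 5 kb 12.7 or 13.7 and that in the 5′ part 13.4 or 15.7. Leaving out c-Maf antibody number 3 or 4 turned both, to -2.19 or -0.613 within 5 kb and to -5.24 or -3.27 in the 5′ part. Over 100 kb (-13.5) the call was lost with equal list lengths (-9.98), 50% reciprocal overlap (-13.1), summits within 200 bp (-8.77), 50 kb in place of 100 kb (-11.02), each gene counted once (-13.3) and a best p-value of 1e-05 after merging (-19.3). It turned at a q-value of 0.05 (39.1, with 2 isotype-only regions) and a p-value of 1e-05 (8.47), and ran from -18.8 to 5.11 with 1 library left out. The planned motif test around summits was not run, because no genome sequence was used here. High input, each gene once, best p after merging and the nearest listed start were chosen after seeing the data. Beyond the small numbers of regions just given, the cause of these changes was not tested.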
